A study of Mus musculus with 6 samples.

Results

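The genes described are those for the nuclear-encoded subunits of the mitochondrial respiratory chain, measured on expression arrays in 3 cell populations of the mouse hair follicle. They were chosen by symbol: every gene whose name in the array's annotation begins with Ndufa, Ndufb, Ndufc, Ndufs, Ndufv, Sdh followed by 1 letter, Uqcr, Cox4i, Cox5, Cox6, Cox7, Cox8 or Atp5, read through the probe set of that gene alone with the highest mean. The rule gave 90 of the 18193 genes tested. Of these, 82 were counted as subunits, among them Cox7a2l, which joins complexes III and IV. The other 8, the Ndufaf genes, encode factors that help to assemble complex I and are not subunits. A further 8 symbols that meet the rule lay on probe sets shared between genes, and these were left out of the tests and counts.

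The cells were sorted from the back skin of untreated female CD-1 mice, and each group had 2 arrays. Transient-amplifying matrix cells (HF-TAC), the dividing progenitors at the base of a growing follicle, were sorted with GFP, integrin α6 and ephrinB1 at P28-30 (postnatal days). At the same ages, sorting with GFP, integrin α6 and CD34 gave the activated stem cells of the follicle (aHF-SC). The quiescent stem cells (qHF-SC) came from P52-60 skin, sorted on integrin α6 and CD34. The qHF-SC group thus also differs in age and sorting scheme, which cannot be told apart from cell state. The labels name neither the source of the GFP nor separate animals behind the replicates, so the spread behind the p-values may be technical.

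The respiratory chain in the inner mitochondrial membrane passes electrons from NADH (at complex I) and succinate (at complex II) through complexes III and IV to oxygen, and pumps protons that drive the ATP synthase. Most subunits are encoded in the nucleus, made in the cytosol and imported, while a small set is encoded in mitochondrial DNA. Hair follicle stem cells are known for high glycolysis and lactate production, and their descendants in the growing follicle divide rapidly to build the hair.

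Across genes, which are not independent replicates, the log2 values of replicate arrays had r = 0.989 in HF-TAC, 0.991 in aHF-SC and 0.992 in qHF-SC. The cell populations carried their markers: of 9 bulge stem cell markers, all 9 were lower in HF-TAC than in aHF-SC, and of 8 hair matrix markers, 6 were higher. Cell division moved in the same direction as many of the results below. The median intensity of 9 proliferation markers was 1444 and 1681 in HF-TAC, 396 and 187 in aHF-SC and 47.7 and 22.9 in qHF-SC, and all 9 were higher in HF-TAC than in either stem cell group. The summed intensity of 7 inner root sheath markers was 6021 and 12184 in HF-TAC, 828 and 1161 in aHF-SC and 632 and 485 in qHF-SC. The 6 differentiated keratinocyte markers summed to 22807 and 13449 in HF-TAC, 5526 and 4782 in aHF-SC and 15997 and 15193 in qHF-SC, with 4 higher in HF-TAC than in aHF-SC, 1 higher than in qHF-SC, and between the stem cell groups 3 lower in aHF-SC. The 7 hair shaft markers summed to 4112 and 10004 in HF-TAC, 435 and 482 in aHF-SC and 237 and 290 in qHF-SC, in HF-TAC mostly through Krt35. The 6 dermal fibroblast markers summed to 3803 and 6324 in HF-TAC, 372 and 646 in aHF-SC and 422 and 529 in qHF-SC. In HF-TAC that sum was nearly all Dcn (3646 and 5927), while the fibrillar collagen gene Col1a1 read 36.7 and 46.2 and Pdgfra 9.9 and 16.6 there. The 6 melanocyte markers summed to 512 and 695 in HF-TAC, 435 and 514 in aHF-SC and 1783 and 1956 in qHF-SC. Mitf made up most of it in qHF-SC (1581 and 1801), while 3 others were higher in HF-TAC than in qHF-SC. Among markers of mitochondria-rich tissues, the 6 of striated muscle summed to 226 and 227 in HF-TAC, 183 and 172 in aHF-SC and 161 and 186 in qHF-SC, with Mylpf alone higher in HF-TAC than in either stem cell group. The 3 of brown fat summed to 172 and 127 in HF-TAC, 46.3 and 55.1 in aHF-SC and 63.6 and 152 in qHF-SC, with Cidea higher in HF-TAC than in aHF-SC and Ucp1, the defining marker, at 8.6 to 12.4 on the 6 arrays, below the median level of all genes (63.0). The part of cell division or of these other cell types in the results below was not tested. In bulk samples, fewer cells of a type and less RNA per cell cannot be told apart.

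HF-TAC against aHF-SC asks how the dividing progenitors differ from the activated stem cells. Of the 90 respiratory chain genes, 17 passed (limma adjusted p below 0.05), all of them higher in HF-TAC. The 17 are Ndufaf6, Ndufaf4, Ndufab1, Uqcrfs1, Ndufs8, Ndufs1, Ndufaf2, Atp5b, Ndufa4, Uqcrq, Ndufa9, Cox5a, Ndufa10, Atp5mpl, Ndufv2, Ndufaf5 and Atp5o. Over all genes tested, 8.97% were called higher and 8.57% lower, against 18.9% and 0 of 90 for the respiratory chain. The median difference was 0.25 on the log2 scale (1.19-fold), against -0.01 over all genes. Both HF-TAC arrays lay above both aHF-SC arrays for 64 of the 90 genes (71.1%) and below for 2. Of all genes, 26.4% lay above and 5080 of 18193 below. The count of calls rests on the spread estimated from all 6 arrays. It was 6 without HF-TAC replicate 1, 5 without HF-TAC replicate 2, 4 without aHF-SC replicate 1, 4 without aHF-SC replicate 2 and 7 without either qHF-SC array. Those counts, 4.44% to 7.78% of the 90, were near the share of all genes called higher under the same settings, 4.21% to 8.52%. The calls of Ndufaf4 and Ndufaf6 remained whichever array was left out.

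HF-TAC against qHF-SC sets the dividing progenitors against resting stem cells, and shares the HF-TAC arrays with the comparison above. Of the 90 genes, 32 passed as higher and 2, Ndufa6 and Ndufa4l2, as lower. Over all genes, 13.4% were called higher and 12.9% lower, against 35.6% and 2 of 90 here. The median difference was 0.36 (1.28-fold), against -0.01 over all genes. Both HF-TAC arrays lay above both qHF-SC arrays for 65 genes (72.2%) and below for 7. Of all genes, 30% lay above and 5684 of 18193 below. The count of higher genes was 20 without HF-TAC replicate 1, 24 without HF-TAC replicate 2, 29 without either aHF-SC array, and 15 and 16 without replicates 1 and 2 of qHF-SC. As shares of the 90, these were 16.7% to 32.2%, and the share of all genes under the same settings was 7.48% to 12.7%. The calls of 14 genes remained whichever array was left out: Atp5b, Atp5mpl, Atp5pb, Cox5a, Ndufa4, Ndufa9, Ndufab1, Ndufaf4, Ndufaf6, Ndufb1, Ndufb7, Ndufs8, Ndufv2 and Uqcrq.

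Most of these genes are bright, and 71 of the 90 were in the brightest 10 percent of all genes by mean intensity. Of those 71, 35.2% were called higher in HF-TAC than in qHF-SC and 1 gene lower, against 25.4% higher and 395 genes lower among all 1820 genes in that class. In HF-TAC against aHF-SC, the shares called higher were 16.9% of the 71 and 12.9% of the 1820. The median difference of the 71 was 0.36 against qHF-SC and 0.23 against aHF-SC, while that of the 1820 was 0.06 and 0.02.

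aHF-SC against qHF-SC asks what differs between activated and resting stem cells. None of the 90 genes passed with limma, against 3.07% of all genes higher and 3.21% lower. At an unadjusted limma p under 0.05, 12 of the 90 were higher and 4 lower, against 1864 and 1821 of the 18193 genes tested. The median difference was 0.08 on the log2 scale, against 0.005 over all genes. Both aHF-SC arrays lay above both qHF-SC arrays for 40 genes (44.4%) and below for 15. Of all genes, 25.7% lay above and 4566 of 18193 below. Closest to the threshold were Cox7c (-1.11 ± 0.26, limma adjusted p = 0.0552), Ndufb1 (0.63 ± 0.15, 0.0556), Cox5a (0.61 ± 0.15, 0.0576) and Ndufs8 (0.58 ± 0.14, 0.0597). Cox7c was read through a dim probe set, with means of 21.2 in aHF-SC and 45.5 in qHF-SC, below the median level of all genes (63.0).

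**Figure D1:**
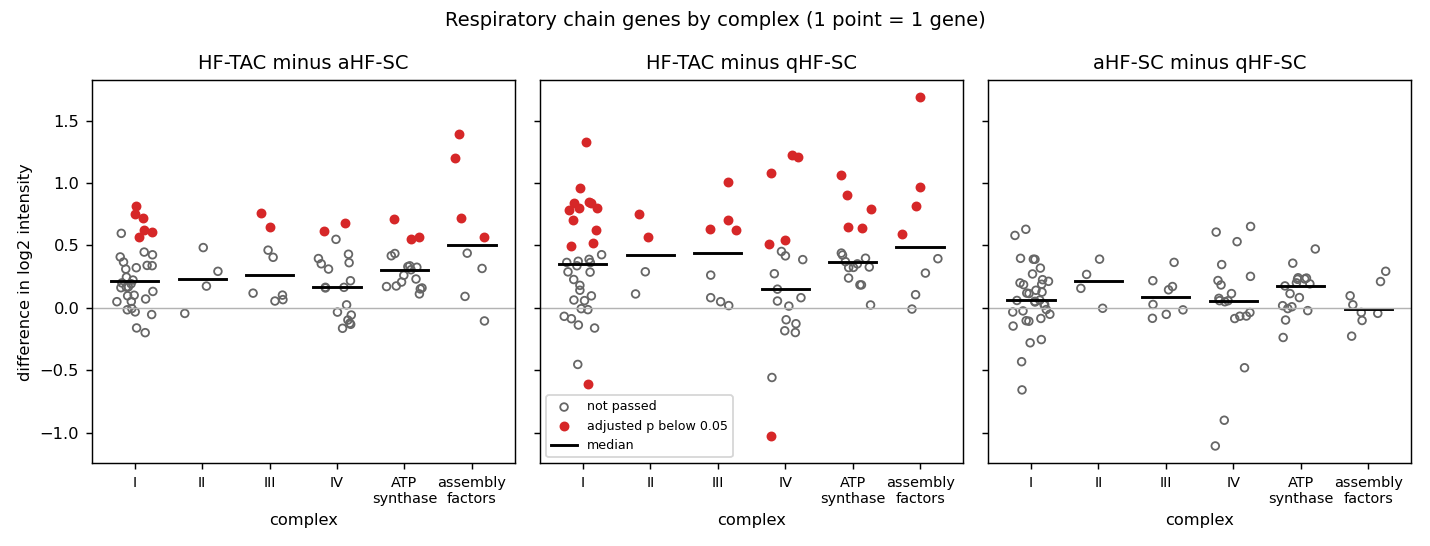
Difference in log2 intensity of each of the 90 genes in the 3 comparisons, grouped by complex, with filled points past a limma adjusted p of 0.05 and a line at each group's median. Against aHF-SC 17 points are filled, all above 0; against qHF-SC 34 are filled, 2 of them below 0; between the stem cell groups none is.

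Complex I takes electrons from NADH. Its measured core subunits, which carry the flavin and the iron-sulfur clusters of the arm in the matrix, rose in part. Of 6, 3 were higher in HF-TAC than in aHF-SC (50%) and 4 higher than in qHF-SC (66.7%). Of all genes, 8.97% and 13.4% were called higher. The median differences of the 6 were 0.50 and 0.70. Ndufs8, which carries iron-sulfur clusters next to the ubiquinone site, had intensities of 4953 and 4798 in HF-TAC, 2949 and 2840.2 in aHF-SC and 1957 and 1916 in qHF-SC. The 3 groups did not overlap. It rose 2.52-fold over qHF-SC (1.33 ± 0.14 SE on the log2 scale, limma adjusted p = 0.000646), more than any other subunit, and 1.68-fold over aHF-SC (0.75 ± 0.14, adjusted p = 0.0112, or 0.0661 without aHF-SC replicate 2). Ndufv2, an iron-sulfur protein of the NADH-binding tip, had 4285 and 4271 in HF-TAC, 3008 and 2777 in aHF-SC and 2542 and 2256 in qHF-SC. Ndufs1, the largest core subunit, had 852 and 1002 in HF-TAC, 607 and 517 in aHF-SC and 590.3 and 488 in qHF-SC. In both genes each HF-TAC array exceeded all 4 stem cell arrays, and both genes passed against aHF-SC (0.57 ± 0.15 and 0.72 ± 0.18) and against qHF-SC (0.84 ± 0.15 and 0.78 ± 0.18). The Ndufs1 calls ended without either aHF-SC array (adjusted p = 0.0618 and 0.169) against aHF-SC, without qHF-SC replicate 2 (0.11) against qHF-SC, and without HF-TAC replicate 2 in both (0.143 and 0.082). Those of Ndufv2 against aHF-SC ended without any 1 of the 6 arrays (0.0662 to 0.182). Ndufv1, which binds NADH and the flavin, had 3066 and 2824 in HF-TAC, 2202 and 2235 in aHF-SC and 1862 and 1969.5 in qHF-SC. Its arrays were ordered in the same way, and it passed against qHF-SC (0.62 ± 0.15, limma adjusted p = 0.0179, 0.0712 to 0.0979 without HF-TAC replicate 1 or either qHF-SC array) but not against aHF-SC (0.41 ± 0.15, 0.106). Ndufs7, which holds the last cluster before ubiquinone, differed in pattern, with 3066 and 2437 in HF-TAC, 2169 and 1912 in aHF-SC and 2558 and 2949 in qHF-SC. Its qHF-SC arrays overlapped those of HF-TAC (-0.01 ± 0.18, adjusted p = 0.985), and its aHF-SC arrays were lowest. Ndufs3, a structural core subunit, had differences of 0.32 ± 0.15 against aHF-SC and 0.37 ± 0.15 against qHF-SC and passed in neither (limma adjusted p = 0.219 and 0.122).

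The supernumerary subunits of complex I, which surround the core, split more widely. Of 28, 3 were higher in HF-TAC than in aHF-SC (10.7%, near the 8.97% of all genes), and 8 were higher (28.6%, against 13.4%) and 1 lower than in qHF-SC. Ndufab1, the mitochondrial acyl carrier protein, had 4390.5 and 5148 in HF-TAC, 2649.6 and 2741 in aHF-SC and 2365 and 2528 in qHF-SC. Both HF-TAC arrays were far above the 4 stem cell arrays, which were close together, and it rose 1.76-fold over aHF-SC (0.82 ± 0.16, limma adjusted p = 0.0115) and 1.94-fold over qHF-SC (0.96 ± 0.16, 0.00379). The call against aHF-SC ended without HF-TAC replicate 2 or either aHF-SC array (adjusted p = 0.0557 to 0.0567), and both calls ended when all probe sets of the gene were averaged (0.155 and 0.831). The call against aHF-SC also ended without probe sets that can cross-hybridise (limma adjusted p = 0.108). The probe set then used had means of 193 in HF-TAC, 128 in aHF-SC and 107 in qHF-SC, and gave 0.58 over aHF-SC and 0.83 over qHF-SC. The average also took in dim probe sets with group means of 7.54 to 25.5, below the median level of all genes. Ndufa6 binds the acyl carrier protein on complex I and took the opposite direction, with 2136 and 1740.3 in HF-TAC, 1958 and 1769 in aHF-SC and 2867 and 3006 in qHF-SC. HF-TAC and aHF-SC overlapped and lay below both qHF-SC arrays, and HF-TAC was 1.52-fold lower than qHF-SC (-0.61 ± 0.17, limma adjusted p = 0.0326). That call ended without HF-TAC replicate 2 (0.153) and without either qHF-SC array (0.106 and 0.149). Ndufa9, at the joint between the arms, had 2548 and 2551 in HF-TAC, 1596 and 1720.2 in aHF-SC and 1322 and 1519.9 in qHF-SC. Ndufa10 had 2796 and 2876 in HF-TAC, 1822 and 1906 in aHF-SC and 1954 and 2062 in qHF-SC. Both were higher in HF-TAC than in either stem cell group, with differences over aHF-SC and qHF-SC of 0.62 and 0.85 for Ndufa9 and 0.61 and 0.50 for Ndufa10. The Ndufa10 calls ended whichever array was left out (adjusted p = 0.0525 to 0.169), and that of Ndufa9 over aHF-SC did so without any array of HF-TAC or aHF-SC (0.0872 to 0.129) and, just past the threshold, without either qHF-SC array or with the 4 arrays compared alone (0.05004).

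Further genes passed against qHF-SC alone among these comparisons: Ndufb7 (0.84 ± 0.15), Ndufb1 (0.80 ± 0.15), Ndufa12 (0.80 ± 0.17), Ndufb6 (0.71 ± 0.15) and Ndufc1 (0.52 ± 0.14), of which Ndufa12 is an accessory of the NADH-binding arm and the others belong to the membrane arm. Whether the effects against the 2 stem cell groups differ was not tested. Ndufb7 had 2196 and 2157 in HF-TAC, 1569 and 1626 in aHF-SC and 1292 and 1151 in qHF-SC, with no overlap between any groups. Ndufb1 had 118 and 102 in HF-TAC, 96.8 and 98.6 in aHF-SC and 63.4 and 62.9 in qHF-SC, and here the aHF-SC arrays were near those of HF-TAC. The calls of Ndufa12, Ndufb6 and Ndufc1 ended without HF-TAC replicate 1 (limma adjusted p = 0.0577, 0.0591 and 0.0891) and without replicate 1 of qHF-SC (0.0851, 0.0733 and 0.14). Without qHF-SC replicate 2 those of Ndufb6 and Ndufc1 ended (0.0609 and 0.115), and that of Ndufc1 also ended without HF-TAC replicate 2 (0.103) or either aHF-SC array (0.0509). Ndufa12 was read through a probe set that can cross-hybridise, and a dim one that cannot, at 16.4, 12.8 and 16.7 in the means of HF-TAC, aHF-SC and qHF-SC, gave -0.03. Its other bright probe sets, which can cross-hybridise too, gave 1.04 and 0.70 over qHF-SC. The remaining 19 supernumerary subunits passed in no comparison, with differences against qHF-SC between -0.45 (Ndufv3) and 0.43 (Ndufb5). Ndufb4 sat at 7.55 to 11.6 on its own probe set, below the median level of all genes, while a probe set it shares with Ndufb4b and Ndufb4c read 2637 and 2455 in HF-TAC, 2315 and 2336 in aHF-SC and 2414 and 2536 in qHF-SC. Ndufa11, read only with Ndufa11b, was lowest in HF-TAC, with 2428 and 2098, 3372 and 3629 in aHF-SC and 3409 and 3926 in qHF-SC. Ndufs6, read only with Ndufs6b, was highest in HF-TAC, with 1431 and 1627, 1049 and 1328 in aHF-SC and 920 and 920 in qHF-SC. Neither of these shared probe sets was tested.

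**Figure D2:**
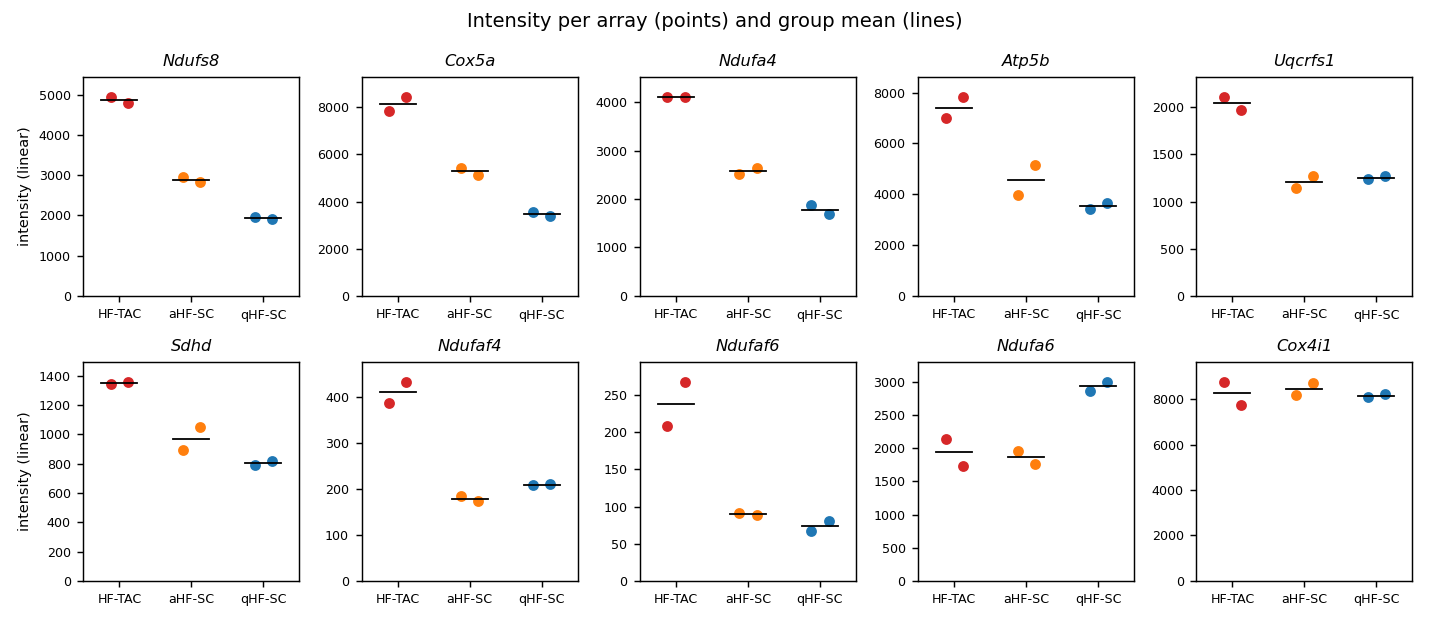
Intensity on each array (points, linear scale from 0) and group mean (line) for 10 of the genes, with HF-TAC left, aHF-SC in the middle and qHF-SC right. Ndufs8, Cox5a and Ndufa4 are separate in all 3 groups, Uqcrfs1 and Ndufaf4 are highest in HF-TAC, Ndufa6 is highest in qHF-SC, and the groups of Cox4i1 overlap.

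The 8 complex I assembly factors meet the symbol rule without being subunits. Among the 90 genes, Ndufaf6 and Ndufaf4 had the largest rises over aHF-SC. Over qHF-SC Ndufaf6 had the largest, while Ndufs8 and other subunits rose more than Ndufaf4. Of the 8, 4 were higher in HF-TAC than in aHF-SC (50%, against 8.97% of all genes). The same 4 were higher than in qHF-SC (50%, against 13.4%): Ndufaf2, Ndufaf4, Ndufaf5 and Ndufaf6. Ndufaf6, needed early in building the membrane arm, had 208 and 268 in HF-TAC, 90.8 and 89.1 in aHF-SC and 67.4 and 80 in qHF-SC. HF-TAC was 2.63-fold over aHF-SC (1.39 ± 0.18, limma adjusted p = 0.00264) and 3.22-fold over qHF-SC (1.69 ± 0.18, 0.000686), the largest difference among the 90 genes in both comparisons. Ndufaf4, which acts on the arm in the matrix, had 386 and 432 in HF-TAC, 184 and 173 in aHF-SC and 208 and 209 in qHF-SC. Here aHF-SC was lowest, and the rise was 2.29-fold over aHF-SC (1.20 ± 0.15, 0.00218) and 1.96-fold over qHF-SC (0.97 ± 0.15, 0.00294). Ndufaf2, a relative of Ndufa12 that acts late in assembly, differed by 0.72 ± 0.17 from aHF-SC and 0.82 ± 0.17 from qHF-SC. Ndufaf5, an enzyme that modifies Ndufs7, differed by 0.56 ± 0.15 and 0.59 ± 0.15 in the same comparisons. Those 2 depended on single arrays: over aHF-SC the Ndufaf2 call ended without any array but aHF-SC replicate 1 (adjusted p = 0.0532 to 0.15), the Ndufaf5 call ended without any array (0.0722 to 0.184), and over qHF-SC both ended without either qHF-SC array (0.0501 to 0.104), that of Ndufaf5 also without either HF-TAC array (0.0589 and 0.0915). Ndufaf1, Ndufaf3, Ndufaf7 and Ndufaf8 passed in neither, with differences between -0.11 and 0.44.

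Complex II, succinate dehydrogenase, is shared by the chain and the citric acid cycle. None of its 4 subunits passed against aHF-SC, and 2 were higher than in qHF-SC (50%, against 13.4% of all genes). Sdhd, a membrane anchor, had 1346 and 1360.0 in HF-TAC, 892 and 1052 in aHF-SC and 789.7 and 819.5 in qHF-SC. Sdha, the flavoprotein, had 1139 and 1232 in HF-TAC, 1044 and 1057 in aHF-SC and 836 and 769 in qHF-SC. HF-TAC exceeded both stem cell groups on every array in both genes, and the rises over qHF-SC were 0.75 ± 0.15 (limma adjusted p = 0.0105) and 0.56 ± 0.15 (0.0273). The Sdhd call ended without either qHF-SC array (0.0629 and 0.0537), and the Sdha call without either qHF-SC array (0.0789 and 0.147) or either HF-TAC array (0.0559 and 0.113), or with its probe sets averaged (0.599). The Sdha average took in dim probe sets with group means of 7.16 to 10.3, below the median level of all genes, and a bright one that gave 0.50 over qHF-SC. Sdhb, the iron-sulfur subunit, differed by 0.29 ± 0.15 from qHF-SC and Sdhc, the other anchor, by 0.11 ± 0.15. Neither passed (limma adjusted p = 0.214 and 0.687).

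Complex III passes electrons from ubiquinol to cytochrome c. Of 8 subunits, 2 were higher in HF-TAC than in aHF-SC (25%) and 4 higher than in qHF-SC (50%), against 8.97% and 13.4% of all genes. Uqcrfs1, the Rieske iron-sulfur protein, had 2111 and 1971 in HF-TAC, 1147 and 1273 in aHF-SC and 1238 and 1268 in qHF-SC. The stem cell groups overlapped, and HF-TAC rose 1.69-fold over aHF-SC (0.76 ± 0.15, limma adjusted p = 0.0131) and 1.63-fold over qHF-SC (0.70 ± 0.15, 0.0116). Uqcrq, a small subunit near the ubiquinone site, had 3365 and 2946 in HF-TAC, 1948 and 2075 in aHF-SC and 1524 and 1602 in qHF-SC. Its groups did not overlap, and the difference was 0.65 ± 0.15 over aHF-SC and 1.01 ± 0.15 over qHF-SC, both past the threshold. Averaging its probe sets ended both calls (limma adjusted p = 0.317 and 0.0719), and leaving out probe sets that can cross-hybridise ended that over aHF-SC (0.355). The other probe sets of Uqcrq were dim, with group means of 14.7 to 40.1, below the median level of all genes. That used had group means of 1563 to 3155. Uqcrc2, a matrix-facing core protein (0.62 ± 0.14), and Uqcr10, a small subunit (0.63 ± 0.15), rose over qHF-SC. Uqcrc1, the partner of Uqcrc2 in the core, had 2017 and 1946 in HF-TAC, 1658 and 2161 in aHF-SC and 1834 and 1999 in qHF-SC, with overlap between all groups (0.05 ± 0.18 over qHF-SC, adjusted p = 0.889). Cyc1, the cytochrome of complex III, whose symbol falls outside the rule, was higher than in aHF-SC (0.68 ± 0.15) and qHF-SC (1.06 ± 0.15). Over aHF-SC the Uqcrfs1 call ended without HF-TAC replicate 1 or aHF-SC replicate 1 (0.0515 and 0.0688) and that of Uqcrq without 5 of the 6 arrays, HF-TAC replicate 2 excepted (0.0519 to 0.111). Over qHF-SC, those of Uqcrfs1, Uqcrc2 and Uqcr10 ended without either qHF-SC array (0.06 to 0.102) and those of Uqcrc2 and Uqcr10 also without HF-TAC replicate 1 (0.0541 and 0.0922), that of Uqcrc2 also without HF-TAC replicate 2 (0.0654).

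Complex IV, cytochrome c oxidase, hands the electrons to oxygen. Its catalytic core is mitochondrially encoded, and the nuclear genes here encode subunits around it. Of the 11 widely expressed genes, 2 were higher in HF-TAC than in aHF-SC (18.2%) and 4 higher than in qHF-SC (36.4%). Of all genes, 8.97% and 13.4% were called higher. Cox5a, a subunit on the matrix side, had 7826 and 8445 in HF-TAC, 5446 and 5147 in aHF-SC and 3579 and 3378 in qHF-SC. The 3 groups did not overlap, and HF-TAC rose 2.34-fold over qHF-SC (1.23 ± 0.15, limma adjusted p = 0.00102) and 1.54-fold over aHF-SC (0.62 ± 0.15, 0.0273). Ndufa4, named for complex I but now counted with complex IV, had 4106 and 4113 in HF-TAC, 2515 and 2633 in aHF-SC and 1869 and 1699 in qHF-SC. It was ordered in the same way, with rises of 2.31-fold over qHF-SC (1.21 ± 0.15, 0.00108) and 1.6-fold over aHF-SC (0.68 ± 0.15, 0.019). Against aHF-SC the Cox5a call ended whichever array was left out (0.0525 to 0.13) and the Ndufa4 call without any array of HF-TAC or aHF-SC (0.0592 to 0.0847). Cox5b, which binds zinc (0.54 ± 0.14), and Cox6a1 (0.51 ± 0.15) passed against qHF-SC, and these calls ended without any HF-TAC or qHF-SC array (0.0665 to 0.171), that of Cox6a1 also without either aHF-SC array (0.0546). A dim probe set of Cox5b that cannot cross-hybridise gave -0.0241. Its other bright probe sets, counted as able to cross-hybridise, gave 0.44, 0.54 and 0.74 over qHF-SC. With only _x_at and _s_at probe sets left out, the Cox5b call remained. Cox4i1, the largest nuclear-encoded subunit, had 8772 and 7752 in HF-TAC, 8189 and 8711 in aHF-SC and 8082 and 8253 in qHF-SC. All 3 groups overlapped, and the differences were -0.03 ± 0.15 against aHF-SC and 0.01 ± 0.15 against qHF-SC (limma adjusted p = 0.929 and 0.966). Cox6b1, Cox6c, Cox7a2 and Cox8a had differences from qHF-SC of 0.15 to 0.42, and Cox7a2l, a factor that joins complexes III and IV, of -0.20, none past the threshold. Cox7c was read through a dim probe set, with 23.4 and 40.9 in HF-TAC, 23.1 and 19.4 in aHF-SC and 45.4 and 45.7 in qHF-SC, and passed in no comparison.

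Complex IV also has isoforms that are restricted to some tissues or conditions, counted apart here: of 8, none passed against aHF-SC, and 1 was higher (12.5%, near the 13.4% of all genes) and 1 lower than in qHF-SC. Ndufa4l2, a relative of Ndufa4 known to be induced by low oxygen, had 111 and 68 in HF-TAC, 87.3 and 103 in aHF-SC and 185 and 169 in qHF-SC. Both qHF-SC arrays lay above the other 4, and HF-TAC was 2.03-fold lower than qHF-SC (-1.02 ± 0.24, limma adjusted p = 0.0189). Ndufa4 and Ndufa4l2 thus took opposite directions in that comparison. Cox6b2, known from testis, had 153 and 143 in HF-TAC, 134 and 89.4 in aHF-SC and 65 and 74.9 in qHF-SC, and rose 2.12-fold over qHF-SC (1.08 ± 0.22, 0.00951). Its aHF-SC arrays were spread between the other groups, and its widely expressed partner Cox6b1 differed from qHF-SC by 0.27 ± 0.14 (0.222). The Ndufa4l2 call ended without HF-TAC replicate 2 (0.0644) or either qHF-SC array (0.0989 and 0.0718), and the Cox6b2 call without qHF-SC replicate 1 (0.0639). Cox4i2, known from lung, and Cox7a1 and Cox8b, known from muscle, were below the median level of all genes, 10.2 to 32.4 over the 6 arrays, as was Cox7b2 at 5.56 to 6.75. Cox6a2, also a muscle isoform, read 66.3 to 83.1 and Cox8c 110 to 149, with no difference past the threshold.

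**Figure D3:**
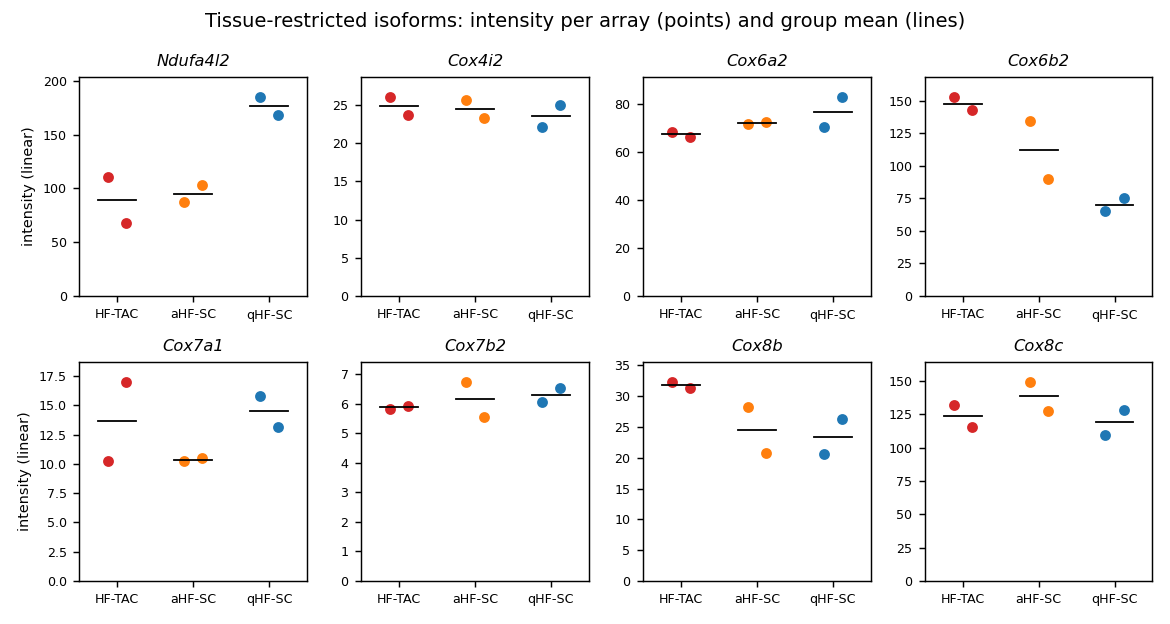
Intensity on each array (points, linear scale from 0) and group mean (line) of the 8 restricted isoforms in HF-TAC (left), aHF-SC (middle) and qHF-SC (right). Ndufa4l2 is highest in both qHF-SC arrays, Cox6b2 is highest in both HF-TAC arrays, and the other 6 show no difference past the threshold.

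The ATP synthase makes ATP from the proton gradient. Both HF-TAC arrays lay above both aHF-SC arrays for all 17 of its measured genes, and above both qHF-SC arrays for 16, against 26.4% and 30% of all genes. Only 3 (17.6%) and 5 (29.4%) passed, against 8.97% and 13.4% of all genes called higher, with median differences of 0.31 and 0.37. Atp5b, the catalytic subunit of the head, had 6981 and 7829.5 in HF-TAC, 3984 and 5137 in aHF-SC and 3426 and 3639.7 in qHF-SC. It rose 1.63-fold over aHF-SC (0.71 ± 0.18, limma adjusted p = 0.0334) and 2.09-fold over qHF-SC (1.07 ± 0.18, 0.00427). The other head and central stalk genes passed in neither on their brightest probe sets: Atp5a1, which pairs with Atp5b in the head, differed from qHF-SC by 0.18, Atp5c1 by 0.24, Atp5d by 0.42 and Atp5e by 0.40. The next brightest probe set of Atp5a1, which cannot cross-hybridise, gave 0.61 over aHF-SC and 0.93 over qHF-SC. Both passed when it was the one used (limma adjusted p = 0.0453 and 0.00563). A dim probe set of Atp5c1 that cannot cross-hybridise gave -0.93 (limma adjusted p = 0.0263). In the peripheral stalk, which holds the head still, Atp5pb had 6215 and 6840.4 in HF-TAC, 4819 and 4827 in aHF-SC and 3596 and 3366 in qHF-SC. Its groups did not overlap, and it rose 1.87-fold over qHF-SC (0.91 ± 0.15, 0.00384), but did not pass over aHF-SC (0.43 ± 0.15, 0.09). Atp5o, the protein that joins stalk and head, had 5669 and 5101 in HF-TAC, 3767 and 3559 in aHF-SC and 3334 and 3589 in qHF-SC, with the stem cell groups overlapping and HF-TAC above both (0.55 ± 0.15 over aHF-SC and 0.64 ± 0.15 over qHF-SC, both past the threshold). Atp5h and Atp5j differed from qHF-SC by 0.18 and 0.32 and did not pass. Atp5mpl, a small membrane proteolipid, rose by 0.57 ± 0.15 over aHF-SC and 0.79 ± 0.15 over qHF-SC. Over aHF-SC the calls of Atp5mpl and Atp5o ended without any array (0.0697 to 0.181) and that of Atp5b without any but aHF-SC replicate 2 (0.0609 to 0.152), and over qHF-SC that of Atp5o ended without HF-TAC replicate 1 or either qHF-SC array (0.0673 to 0.102).

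The c ring, the turning part of the enzyme, is encoded by Atp5g1, Atp5g2 and Atp5g3, which give the same mature peptide. Atp5g1 had 3606 and 3529 in HF-TAC, 2610.1 and 2736 in aHF-SC and 2307 and 2247 in qHF-SC, and rose over qHF-SC (0.65 ± 0.14, limma adjusted p = 0.0136), a call that ended without either qHF-SC array (0.0634 and 0.0782) and with all its probe sets averaged (0.205). The other probe set of Atp5g1 was dim, below the median level of all genes. Its means were 8.74 in HF-TAC, 14.0 in aHF-SC and 8.50 in qHF-SC. Used in the setting without probe sets that can cross-hybridise, it gave 0.0414 for HF-TAC against qHF-SC (limma adjusted p = 0.945). With only _x_at and _s_at probe sets left out, the bright probe set stayed in use and the call remained. Atp5g2 had 5266 and 4884 in HF-TAC, 4346 and 4125 in aHF-SC and 4675 and 5331 in qHF-SC, and Atp5g3 had 10112 and 10959 in HF-TAC, 9519 and 9977 in aHF-SC and 8574 and 7935 in qHF-SC. Atp5g2 showed no separation of HF-TAC from qHF-SC (0.02 ± 0.15), and Atp5g3 did not pass (0.35 ± 0.15). A difference between the 3 genes was not tested.

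**Figure D4:**
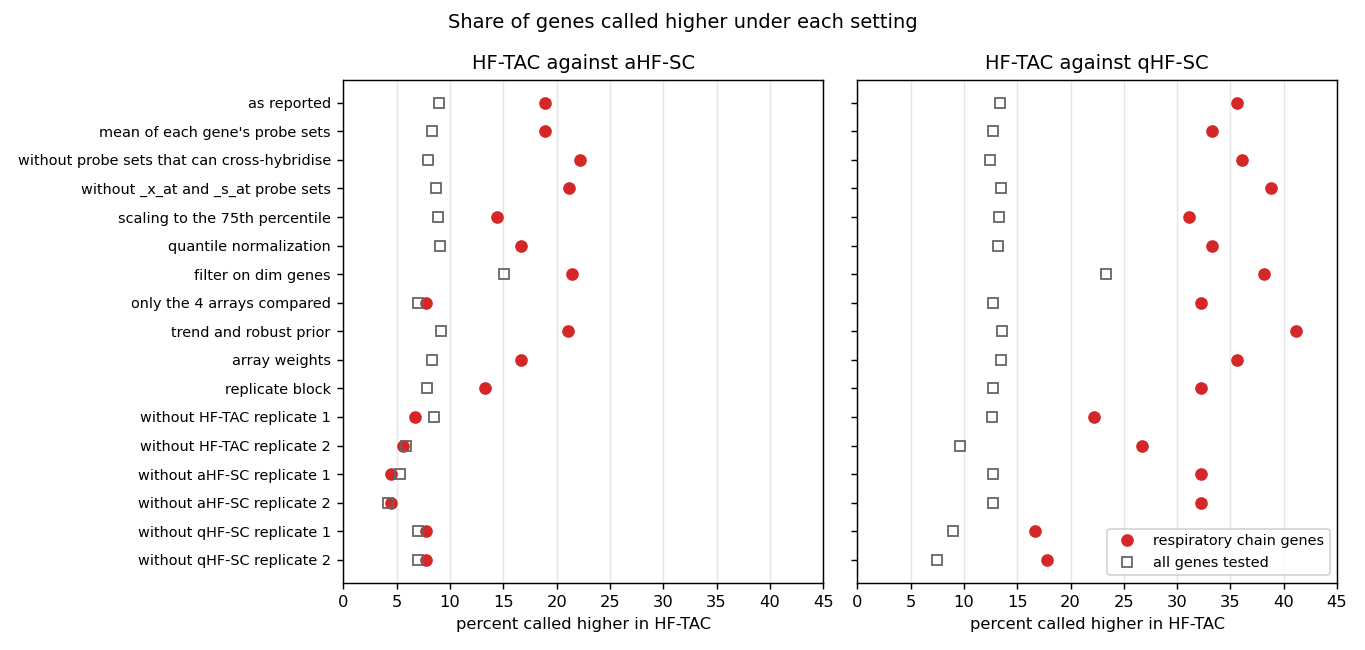
Percent of the respiratory chain genes (filled circles) and of all genes tested (open squares) called higher in HF-TAC under each setting. Against qHF-SC the respiratory chain share is above that of all genes in every setting shown, at 16.7% to 41.1%; against aHF-SC it falls to 4.44% to 7.78% when any array is left out, near that of all genes.

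Different probe sets of a gene did not always give the same size. For 42 of the genes, at least 2 probe sets lay above the median level of all genes. In HF-TAC against qHF-SC, the brightest and the next brightest had the same sign for 38 of the 42 and were within 0.2 of each other on the log2 scale for 34. The next brightest gave the more positive difference for 26 genes and the less positive for 16, with medians of 0.46 for the next and 0.38 for the brightest. In HF-TAC against aHF-SC the numbers were 27 and 15, with medians of 0.33 and 0.24. Atp5a1 showed the widest gap: its brightest probe set differed from qHF-SC by 0.18 and the next by 0.93, which passed when it was the one used (limma adjusted p = 0.00563). Uqcrb, a small subunit of complex III with 15678 and 14379 in HF-TAC, 15866 and 13179 in aHF-SC and 14414 and 13975 in qHF-SC, differed by 0.08 on its brightest probe set and 0.49 on the next. Ndufb8 went the other way, with 0.36 on the brightest and -0.37 on the next, which was 26.9 times dimmer.

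**Figure D5:**
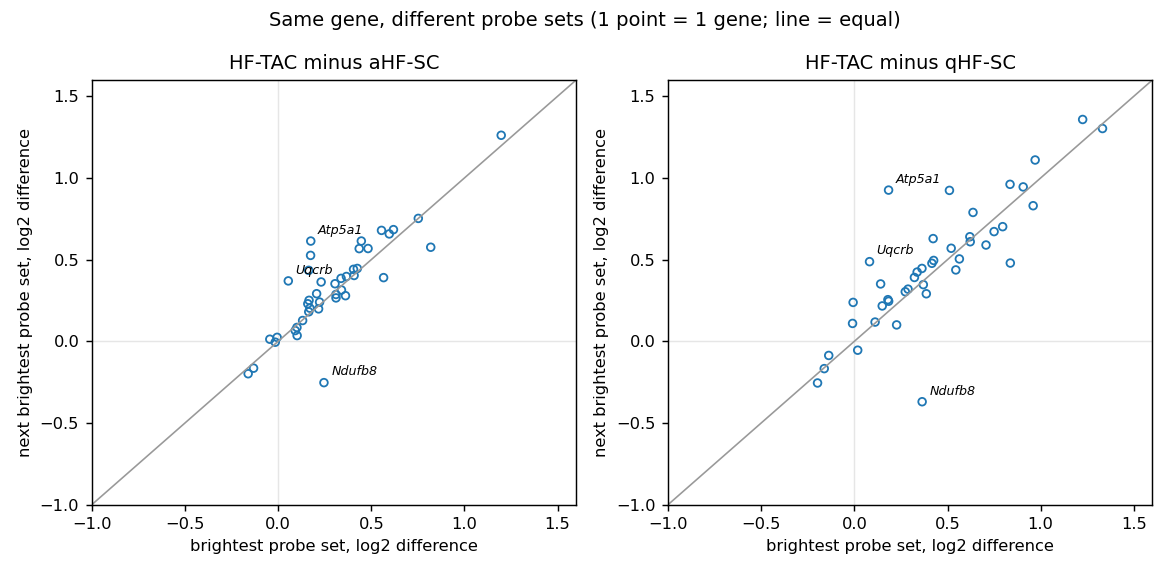
Log2 difference of HF-TAC from aHF-SC (left) and from qHF-SC (right) for 42 genes with 2 or more probe sets above the median level, with the brightest probe set across and the next brightest upward. Most points lie near the line of equal values; Atp5a1 and Uqcrb are above it and Ndufb8 is below it.

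Promoters of these genes are known for sites of nuclear respiratory factor 1 (NRF1), ETS factors such as GABPA, YY1 and estrogen-related receptors. RefSeq windows (GRCm38.p6) of 300 bases, 250 before and 50 after the start, were found for 74 of the 90 genes, 79 windows in all. The letters searched, on both strands, were GCGCANGCG for NRF1, whose matches can overlap each other on opposite strands, CCGGAAGT for ETS, AAGATGGCG for YY1 and TCAAGGTCA for estrogen-related receptors. The windows below pair members that were higher in HF-TAC than in qHF-SC and hold NRF1 letters (Sdha, Sdhd and Ndufaf4) with others. Ndufs8 and Cox5a are leading members that hold none of the 4. Atp5h holds 2 kinds in the printed bases and did not pass. Each is the 250 bases before the start, 5′ to 3′ in the direction of the gene, and capitals mark the letters found. They lie at chr13:74350241-74350490 on the minus strand for Sdha, chr9:50603850-50604099 on the minus strand for Sdhd, chr4:24897833-24898082 on the plus strand for Ndufaf4, chr19:3912775-3913024 on the minus strand for Ndufs8, chr9:57520982-57521231 on the plus strand for Cox5a and chr11:115419920-115420169 on the minus strand for Atp5h.
Sdha: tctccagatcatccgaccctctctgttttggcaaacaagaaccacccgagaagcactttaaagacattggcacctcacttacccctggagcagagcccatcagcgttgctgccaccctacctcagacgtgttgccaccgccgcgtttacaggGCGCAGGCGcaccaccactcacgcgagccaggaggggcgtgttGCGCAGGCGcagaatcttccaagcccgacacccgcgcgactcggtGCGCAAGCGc
Sdhd: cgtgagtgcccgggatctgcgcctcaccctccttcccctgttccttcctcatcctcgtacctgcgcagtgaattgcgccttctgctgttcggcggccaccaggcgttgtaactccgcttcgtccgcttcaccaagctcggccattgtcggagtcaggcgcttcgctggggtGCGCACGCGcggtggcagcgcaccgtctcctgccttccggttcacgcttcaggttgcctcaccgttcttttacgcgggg
Ndufaf4: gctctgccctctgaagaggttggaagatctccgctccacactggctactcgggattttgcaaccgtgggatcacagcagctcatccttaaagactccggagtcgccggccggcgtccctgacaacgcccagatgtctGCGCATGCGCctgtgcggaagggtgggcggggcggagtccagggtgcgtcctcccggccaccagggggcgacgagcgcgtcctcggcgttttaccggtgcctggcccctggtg
Ndufs8: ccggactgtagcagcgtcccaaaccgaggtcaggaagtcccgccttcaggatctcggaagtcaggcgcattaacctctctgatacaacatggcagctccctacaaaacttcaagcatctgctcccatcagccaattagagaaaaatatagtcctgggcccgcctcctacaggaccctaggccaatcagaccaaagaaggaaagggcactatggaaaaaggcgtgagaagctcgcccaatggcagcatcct
Cox5a: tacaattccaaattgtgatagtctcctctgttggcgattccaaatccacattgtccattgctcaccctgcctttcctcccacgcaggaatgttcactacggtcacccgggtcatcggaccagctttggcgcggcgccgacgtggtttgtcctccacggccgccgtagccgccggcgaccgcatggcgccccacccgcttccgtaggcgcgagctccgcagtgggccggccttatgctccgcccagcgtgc
Atp5h: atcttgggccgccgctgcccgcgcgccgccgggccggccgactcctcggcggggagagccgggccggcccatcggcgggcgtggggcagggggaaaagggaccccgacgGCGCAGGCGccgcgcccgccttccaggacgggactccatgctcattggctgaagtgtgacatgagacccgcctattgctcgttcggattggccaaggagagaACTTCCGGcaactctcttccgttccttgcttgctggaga

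Counted from the start, the NRF1 letters of Sdha begin at -98, -55 and -10, those of Sdhd at -79, and those of Ndufaf4 at -113 and, on the other strand, -112. Sdhd also holds letters of estrogen-related receptors, at 36, which is after the start and past the printed bases. Atp5h holds NRF1 letters at -141 and ETS letters at -39. Over the windows of the respiratory chain genes, 26.6% held NRF1 letters, against 9.89% of the 18010 windows of genes with a probe set of their own and 6.25% of all 32851 windows. YY1 letters were in 8.86%, against 2.1% and 1.4%, ETS letters in 6.33%, against 5.86% and 3.89%, and the letters of estrogen-related receptors in 2.53%, against 0.344% and 0.423%. Of the 7 windows with YY1 letters, 6 held them after the start and all 7 in the direction spelled, against 57.8% and 74.4% of the 379 such windows of all genes with a probe set. Median GC content was 59% in the windows of the respiratory chain genes and 58.3% in those of genes with a probe set. NRF1 letters were in 6 of 27 windows (22.2%) of genes called higher in HF-TAC than in qHF-SC and in 15 of 52 (28.8%) of the others, a description with no test. A match is not a site, and no match says only that these letters are not in this window.

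Other mitochondrial genes were measured beside the chain, and their counts are set against the 8.97% of all genes called higher over aHF-SC and the 13.4% over qHF-SC. Of 16 genes of protein import and folding, 12 were higher in HF-TAC than in aHF-SC (75%) and 14 higher than in qHF-SC (87.5%), with median differences of 0.76 and 1.16. Among them Hspd1, a chaperonin, rose by 1.20 ± 0.24 and 1.83 ± 0.24, and Tomm40, the channel of the outer membrane, by 0.99 ± 0.20 and 1.77 ± 0.20. Of 12 citric acid cycle genes outside complex II, 6 were higher than in aHF-SC (50%) and 7 higher than in qHF-SC (58.3%), led by Fh1, fumarase (0.97 and 1.40). Of 8 further genes linked to the chain but outside the symbol rule, Cyc1 among them, 2 were higher than in aHF-SC (25%) and 4 higher than in qHF-SC (50%). Among these, Cycs, the somatic cytochrome c that links complexes III and IV, rose by 0.83 ± 0.18 and 1.20 ± 0.18. Of 31 assembly factors outside the rule, 2 were higher (6.45%, below the share of all genes) and 2 lower than in aHF-SC, and 11 were higher (35.5%) and 1 lower than in qHF-SC. Atpaf1, which assembles the ATP synthase head, rose by 1.12 ± 0.16 and 1.48 ± 0.16, Surf1, which acts on complex IV, was lower than in qHF-SC (-1.32 ± 0.16), and Acad9, which acts on complex I, was lower than in aHF-SC (-0.73 ± 0.20) and higher than in qHF-SC (0.92 ± 0.20). Of 20 regulators of mitochondrial biogenesis, 2 were higher (10%, near the share of all genes) and 1 lower than in aHF-SC, and 5 were higher (25%) and 2 lower than in qHF-SC. Pprc1, a coactivator related to PGC-1, rose over qHF-SC (1.50 ± 0.32), and Hif1a, the oxygen-regulated factor, was lower in HF-TAC than in aHF-SC (-1.63 ± 0.21) and qHF-SC (-0.85 ± 0.21). Nrf1, Gabpa, Esrra and Yy1, the genes of the factors named above, did not pass, with differences of 0.53, 0.15, -0.01 and 0.24 from qHF-SC. Of 9 carriers and porins, 1 was higher than in aHF-SC (11.1%, near the share of all genes) and 2 than in qHF-SC (22.2%), among them Slc25a5, which exchanges ADP and ATP (0.55 ± 0.15 and 1.13 ± 0.15). Of 13 genes for pyruvate entry and lactate, 3 were higher than in aHF-SC (23.1%), and 5 were higher (38.5%) and 1 lower than in qHF-SC. The lower one was Pdha1, a pyruvate dehydrogenase subunit (-0.66 ± 0.15), with aHF-SC lower against qHF-SC as well (-0.87 ± 0.15). Pdk3, a kinase that inhibits that enzyme, was higher than in qHF-SC both in HF-TAC (1.49 ± 0.19) and in aHF-SC (0.94 ± 0.19), and Pdp2, the phosphatase that activates the enzyme, rose by 0.93 ± 0.25 and 1.36 ± 0.25. The largest difference from qHF-SC was that of Pdk4, another such kinase (2.38 ± 0.94), whose 2 HF-TAC arrays were far apart (326 and 48.3) and which did not pass (limma adjusted p = 0.112). The mitochondrially encoded subunits could be read through ND5 alone, which did not pass (0.30 ± 0.38 against aHF-SC and -0.37 ± 0.38 against qHF-SC).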

How the data were processed

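Total RNA was extracted with Trizol and 2 µg per array were labelled, per the labels' protocols. The deposited intensity values of 45101 probe sets are on a linear scale, and the submitters' processing notes name RMA, with no version and no role. RMA usually quantile-normalises arrays and compresses large differences. No detection calls were used.

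Of these probe sets, 64 controls were left out, 34945 carried 1 gene symbol in the platform annotation, 932 several and 9160 none. Each of 18193 genes was read through its probe set with the highest mean log2 value, without a filter on dim genes. All 90 respiratory chain genes were matched to RefSeq by Entrez identifier. In R 4.3.3, limma 3.58.1 fitted the log2 values of the 6 arrays together, with a mean for each of the 3 groups, then contrasts and moderated tests with 3 residual and 4.25 prior degrees of freedom. Tests were two-sided, and p-values were Benjamini-Hochberg adjusted over all genes within each of 3 comparisons, at 0.05. The fit was tested on simulated data. Differences are HF-TAC or aHF-SC minus the group named after it, on the log2 scale with their SE. For arrays, the number of replicates, 2 a group, limits the precision.

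Genes were named by rule: the 10 largest rises and falls past the threshold per comparison, all members of the small functional lists, and up to 4 genes of each other list. The members and lists were chosen with earlier results of these data known. Averaged probe sets, cross-hybridising probe sets, scaling, filters, priors, weights, the replicate block and left-out arrays were tried as alternatives. Probe sets that can cross-hybridise were taken, by suffix alone, as those with _x_at, _s_at or _a_at. Whether each of them matches other genes was not checked. In the alternative chosen after seeing the data they were those with _x_at or _s_at.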

Additional observations from a re-analysis of the deposited data

How the results depend on the processing

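With 2 arrays a group, single arrays set much of what passed. Of the respiratory chain genes, the count called higher in HF-TAC than in aHF-SC was 17, 7 with only the 4 arrays compared, and 4 to 7 with 1 array left out. Against qHF-SC it was 32, and 15 to 29 with 1 array left out, while the count of lower genes was 2 and then 0 to 3. Between aHF-SC and qHF-SC no gene passed; averaging probe sets gave 2 higher, a trended and robust prior 3 higher and 2 lower, array weights 3 higher and 1 lower, scaling to the 75th percentile 1 lower, the 4 arrays alone 2 lower, and left-out arrays 0 to 2 lower. The median difference against qHF-SC was 0.36, 0.31 with averaged probe sets, 0.27 after quantile normalization and 0.32 to 0.38 with 1 array left out. Between the stem cell groups it was 0.08, 0.0406 after quantile normalization, 0.114 with a filter on dim genes and 0.0527 to 0.13 with 1 array left out. Directions turned in HF-TAC against qHF-SC where leaving out cross-hybridising probe sets left a dim one: Atp5c1 to -0.93 (limma adjusted p = 0.0263, or 0.0264 when, as chosen after seeing the data, probe sets with the suffixes for shared sequence alone were left out), Cox5b to -0.0241 and Ndufa12 to -0.0343. The replicate numbers are shared between groups but no label pairs the samples, and deviations from group means correlated at 0.08 for HF-TAC with aHF-SC, -0.13 for HF-TAC with qHF-SC and 0.06 for aHF-SC with qHF-SC. With the replicate number as a block, 12 genes were higher in HF-TAC than in aHF-SC, 29 higher and 2 lower than in qHF-SC, and none differed between the stem cell groups. Over single genes, 619 alternatives to a call kept it and 186 lost it with the direction kept.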
